A study of Mus musculus with 22 samples.

Results

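Granulocytic myeloid-derived suppressor cells (G-MDSCs) from mammary tumours of mice given entinostat plus anti-PD-1 (4 samples, ENT_PD1 for short) were compared with those from mice given vehicle (6 samples). These 10 samples were chosen by their names out of the 22 of the series, and all 655 endogenous genes of a NanoString mouse myeloid panel were read in them. NT2.5 cells, which derive from a mammary tumour that arose spontaneously, had been injected (50000 cells) into the fat pad of female neu-N mice (strain FVB-Neu-N, 7 to 8 weeks old), which carry a rat neu (HER2) transgene, and the tumours seeded for 3 days. ENT_PD1 mice then received entinostat at 5 mg/kg daily by gavage and anti-PD-1 at 100 µg per mouse by intraperitoneal injection 2 times a week, for 3 weeks. Vehicle mice received the 0.5% methylcellulose that carried the drug, together with isotype antibodies, while the sample notes describe vehicle as PBS with methylcellulose. An anti-HER2 antibody was given in some of the experiments with this model, and whether the mice of these samples received it is unknown here. No group received anti-PD-1 without entinostat, so the comparison with vehicle does not separate the drug from the antibody. The stated purpose of the profiling was to look for transcript changes behind an impaired function of these cells.

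G-MDSCs are immature neutrophil-like cells that gather in tumours and restrain T cells through arginase, reactive oxygen and nitrogen species, prostaglandin E2 and checkpoint ligands. Entinostat inhibits class I histone deacetylases, enzymes that remove acetyl groups from histones and from other proteins. PD-1 is a receptor on T cells whose ligands, among them PD-L1, damp the T cell response, and anti-PD-1 blocks it.

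Levels are given as the normalized counts of the deposited table. A fold change is the difference, ENT_PD1 minus vehicle, of log2(normalized count + 1), given with the standard error (SE) that limma estimated. The limma p-values were two-sided and were adjusted by Benjamini-Hochberg across every tested gene, and a gene passed at an adjusted p under 0.05. The labels do not tie the samples to separate animals, so a p-value reflects the spread among these samples alone, part of which may be technical. Recovered barcode counts ran from 178490 to 260317 in ENT_PD1 and from 127353 to 247892 in vehicle samples. All 4 ENT_PD1 samples lay on cartridge 1, as did vehicle samples 1, 2 and 4, while vehicle samples 3, V1 and V2 lay on cartridge 2. The negative controls, probes with no target, averaged 8.63 to 10.4 normalized counts in ENT_PD1 and 4.66 to 7.04 in vehicle samples, so genes near background started from a higher floor in ENT_PD1. Ly6g, which encodes the surface protein used to select the cells, stood at background in both groups, with means of 6.81 normalized counts in ENT_PD1 and 5.58 in vehicle samples. S100a8, S100a9, Csf3r, Cxcr2 and Mmp9, all known from neutrophils, lay above the background limit of 29.3 normalized counts in each of the 10 samples. Mpo, Elane and Ctsg, which encode enzymes of early neutrophil granules, lay under it in both groups.

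Vehicle sample 2 stood apart from the other vehicle samples before any test. Its recovered counts differed from those of the 4 ENT_PD1 samples by a chi-square per degree of freedom of 5.42 to 14.7, and from those of the other vehicle samples by 35.9 to 103, and it had the highest vehicle value in 196 of the 420 tested genes. The labels give it as vehicle, it was kept there, and results that rest on it are also given without it. Vehicle sample 3 lay apart as well, by a chi-square per degree of freedom of 23.5 to 35.9 from the other vehicle samples. From the ENT_PD1 samples it differed by 36.3 to 47.9, and it had the highest vehicle value in 96 genes. Among vehicle samples 1, 4, V1 and V2 the chi-square per degree of freedom was 4.37 to 13.5. Vehicle samples 1, 2 and 4 lay in lanes 1, 2 and 4 of cartridge 1, and lane 3 held a sample labelled as entinostat with both antibodies (called a here). Vehicle sample 3 lay in lane 8 of cartridge 2, beside the other 3 samples of that triple combination in lanes 5 to 7. Whether samples were exchanged, sample 2 among them, was not tested, and the directions drawn from the vehicle group rest on its labels. Without vehicle sample 3 and triple combination sample a, 109 genes passed, against 92 with them.

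Of the 655 genes, 420 had a mean above the background limit in at least 1 group of the series and were tested. Of these, 92 passed (21.9%), 86 higher (20.5%) and 6 lower (1.43%) after entinostat plus anti-PD-1, and 151 had an unadjusted p under 0.05. The genes that rose included S100a8, S100a9 and other genes of neutrophils and inflammatory cytokines such as Il1b and Tnf. They had log2 fold changes from 0.40 to 1.75 and a median of 1.34, whereas the 6 genes that were lower fell by 0.32 to 0.56 on that scale. The median over all 420 tested genes was 0.29, with 295 positive and 125 negative, and it was -0.02 after each sample was centred on its median, so changes are read against this shift. Values varied less among ENT_PD1 samples than among vehicle samples, with a median log2 SD per gene of 0.23 against 0.43. In 352 of the 420 genes the SD was the smaller in ENT_PD1. The vehicle samples lay on both cartridges and included sample 2, whereas the ENT_PD1 samples shared a cartridge, and the cause was not tested. The limma fit took the same spread for all groups. In 37 genes (8.81%) every ENT_PD1 sample lay above every vehicle sample, and in 3 (0.714%) every one lay below.

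**Figure D1:**
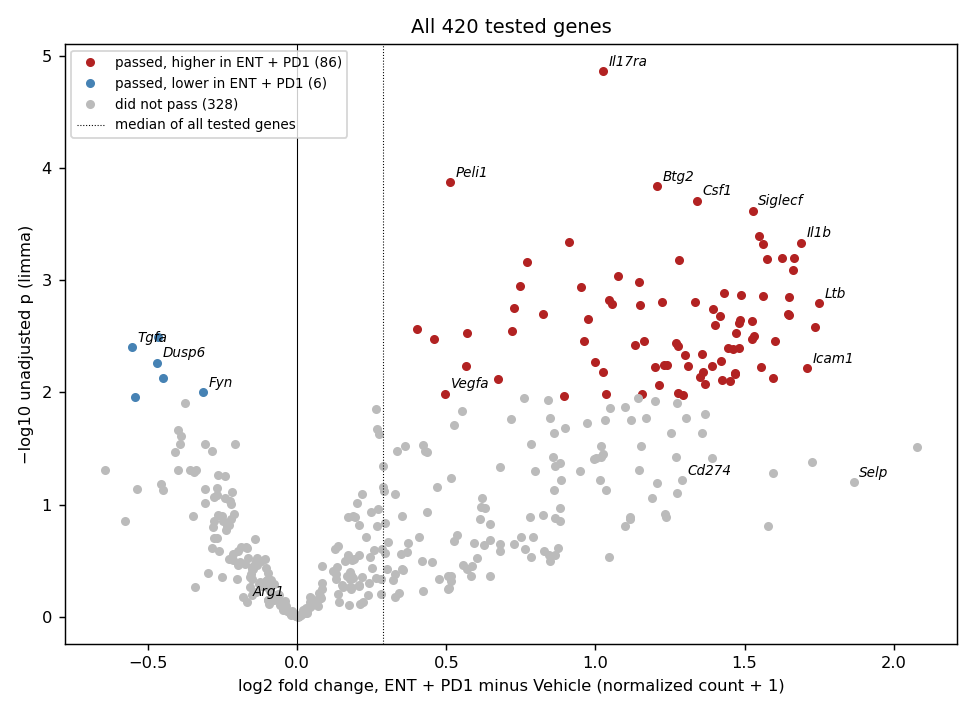
Each point is 1 of the 420 tested genes, with the log2 fold change (ENT_PD1 minus vehicle) on the x axis and the -log10 of the unadjusted limma p on the y axis; red and blue mark the 86 higher and 6 lower genes at an adjusted p under 0.05. The points lie mostly right of 0, the dotted line at 0.29 is the median of all tested genes, and Il17ra stands highest.

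The median fold change of the 86 genes that rose moved less between fits than the count of genes that passed. These 86, and the 92 that passed, were picked in a fit that held the same samples. A steady size or direction in them is therefore no independent support. Without vehicle sample 2, 140 genes passed, 125 higher (29.8% of those tested) and 15 lower (3.57%), and the median fold change of the 86 genes was 1.59. Without vehicle sample 1 or 4, or without ENT_PD1 sample 1, 2 or 4, a single gene passed, with medians of those 86 genes from 1.19 to 1.39. No gene passed within cartridge 1 (134 at an unadjusted p under 0.05, median 1.28) or without vehicle samples V1 and V2 (110 at an unadjusted p under 0.05, median 1.20). All 92 genes kept their direction in both. With the cartridge as a block 3 genes passed, Il17ra, Btg2 and Peli1, a ubiquitin ligase of Toll-like receptor signalling that was named after its values were seen (0.51 ± 0.11, adjusted p = 0.0201 with no block). Peli1 passed in 14 of the 26 alternatives planned for this comparison. Its highest adjusted p over those limma, edgeR and DESeq2 fits was 0.921.

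**Figure D2:**
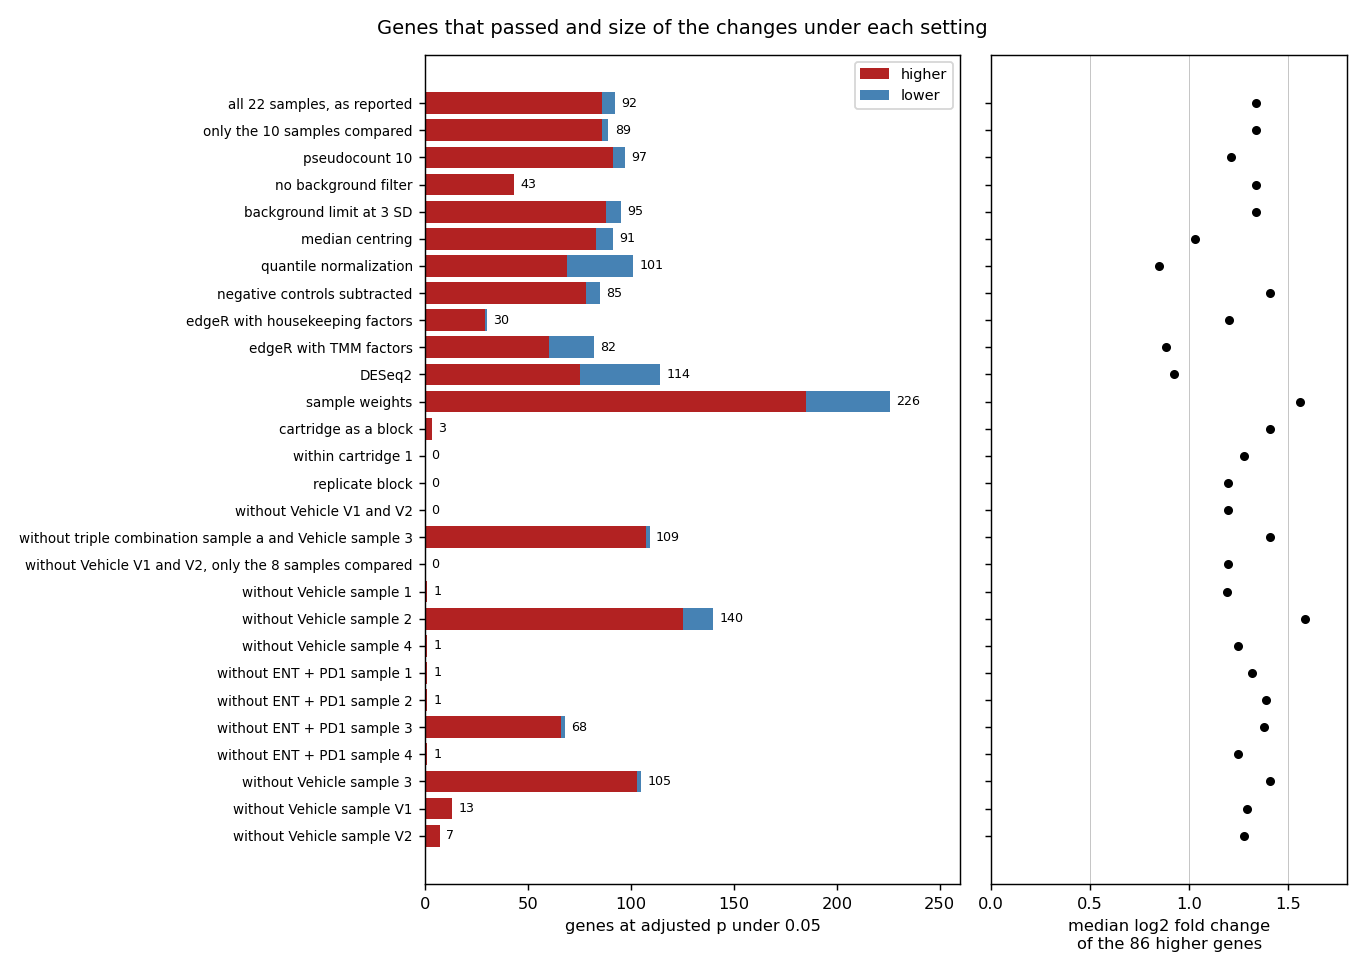
Each row is a way of processing or a set of samples; the bars give the number of genes at an adjusted p under 0.05 (red higher, blue lower in ENT_PD1) and the points the median log2 fold change of the 86 genes that were higher with all 22 samples. The counts run from 0 to 226, while the medians lie between 0.85 and 1.59.

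Il17ra, the receptor subunit through which interleukin-17A signals, had the smallest p. It stood at 222, 199, 187 and 223 normalized counts in ENT_PD1 samples 1 to 4, against 92.1, 146, 97.8, 92.7, 96.3 and 91.4 in vehicle samples 1 to 4, V1 and V2. All ENT_PD1 samples lay above all vehicle samples, and vehicle sample 2 was the highest of its group. The log2 fold change was 1.03 ± 0.18 (SE, adjusted p = 0.00572). It passed in 23 of the 26 alternatives planned for this comparison, more than any other gene, and was the single gene that passed in each of the leave-one-out fits with 1 gene. Next came Btg2, an antiproliferative immediate early gene, with 18 alternatives.

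**Figure D3:**
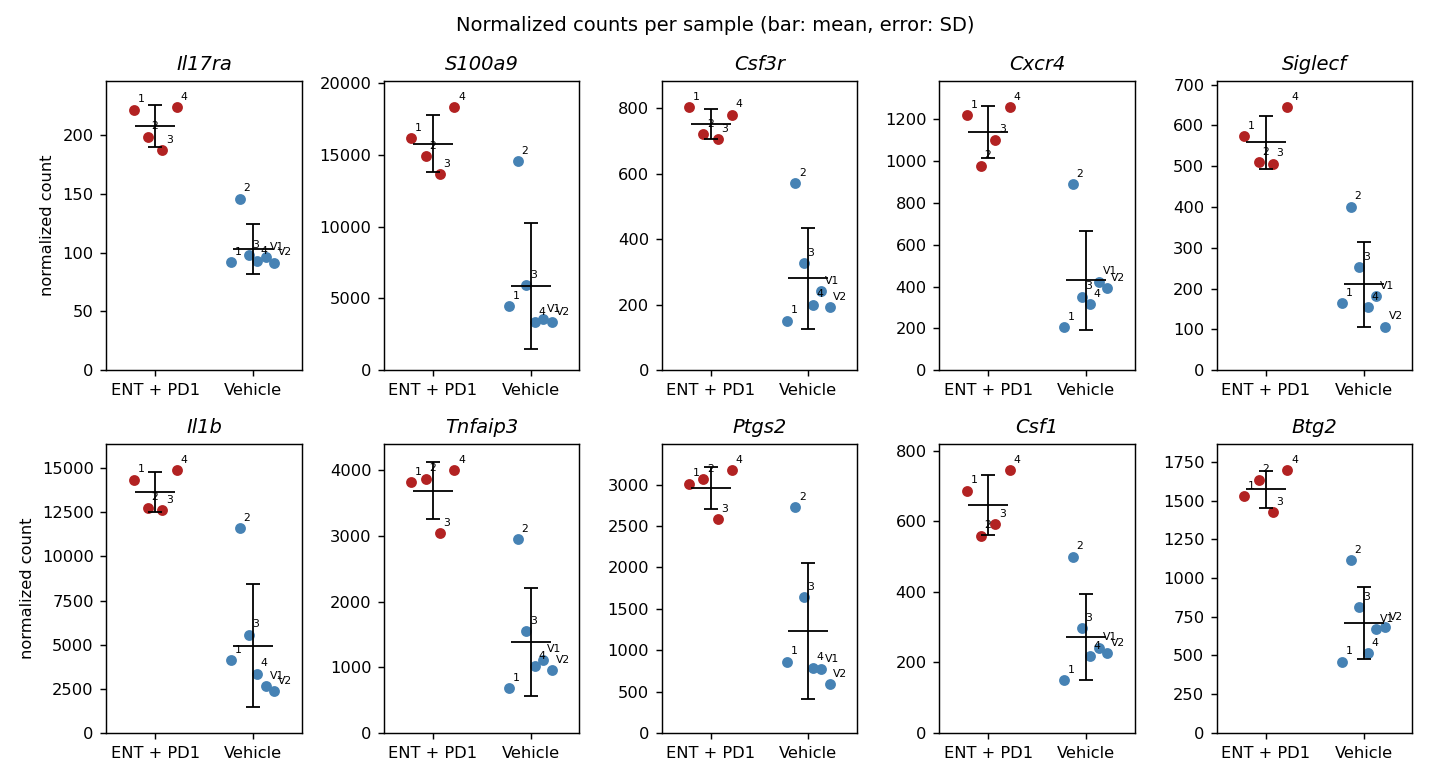
Normalized counts of 10 genes in each sample, ENT_PD1 (red, 4 samples) left of vehicle (blue, 6 samples), with sample names beside the points, and the mean with SD as bars. In each panel vehicle sample 2 is the highest vehicle point, and all ENT_PD1 points lie above the other 5 vehicle points.

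Most of the neutrophil genes tested rose. Of 13 tested neutrophil granule, calprotectin and surface genes, 10 rose and none fell, with a median log2 fold change of 1.47 against 0.29 over all tested genes (1.16 and -0.02 after median centring). Without vehicle sample 2, 12 of the 13 rose, with a median of 1.68. That sample was set apart by its likeness to ENT_PD1, so leaving it out tends to widen the difference. Within cartridge 1, and without vehicle samples V1 and V2, none of the 13 passed (medians 1.38 and 1.30). Nor did any gene of the lists that follow pass in those 2 fits. Counts for the neutrophil genes and for the lists that follow stand against 20.5% of all tested genes higher. Without vehicle sample 2, where more genes passed in general, they stand against 29.8% higher. S100a9, a subunit of calprotectin, the calcium-binding alarmin of neutrophils, stood at 16171, 14942, 13679 and 18314 normalized counts in ENT_PD1 samples, against a lowest, median and highest of 3347, 4025 and 14573 in vehicle samples. The highest vehicle value was that of sample 2, which lay within the ENT_PD1 range. Together S100a8 and S100a9 made up 9.84, 9.36, 8.97 and 10.1% of all endogenous normalized counts in ENT_PD1 samples 1 to 4. They made up 8.95% in vehicle sample 2 and 2.83 to 4.57% in the other 5 vehicle samples.

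Csf3r, the receptor for the growth factor G-CSF that drives neutrophil production, stood at 802, 719.7, 706 and 779.7 normalized counts in ENT_PD1 samples, against a lowest, median and highest of 151, 221 and 570.1 in vehicle samples. The groups did not overlap, and the log2 fold change was 1.56 ± 0.37 (adjusted p = 0.0207). Cxcr2, the receptor that draws neutrophils toward CXC chemokines, rose by 1.43 ± 0.38 (adjusted p = 0.0239), and here vehicle sample 2, at 409, exceeded ENT_PD1 sample 2, at 401 normalized counts. Mmp9, a gelatinase of neutrophil granules, rose by 1.42 ± 0.40 (adjusted p = 0.0249). Pglyrp1, a peptidoglycan-binding granule protein, did not pass, at 563, 677, 867 and 666 normalized counts in ENT_PD1 and 579, 618 and 889 as the lowest, median and highest in vehicle samples (0.05 ± 0.18, adjusted p = 0.854), and its sign turned under other scalings.

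Some further neutrophil genes passed and are named after their values were seen. Trem1, a receptor that amplifies inflammatory signals, rose by 1.49 ± 0.42 (adjusted p = 0.0256) without overlap between the groups. Fpr2, a receptor for formylated peptides, rose by 1.47 ± 0.48, and Itgam, the CD11b integrin chain, by 1.16 ± 0.41 (adjusted p = 0.0375 and 0.049). Camp, which encodes the cathelicidin peptide, passed with a fold change of 1.55 ± 0.50, but its means of 25.0 normalized counts in ENT_PD1 and 7.80 in vehicle samples lay under the background limit, where the negative controls also stood higher in ENT_PD1. Siglecf, a sialic acid-binding inhibitory receptor known from eosinophils and also seen on tumour neutrophils, had 573, 511, 506 and 644 normalized counts in ENT_PD1 samples, against 107, 174 and 401 as the lowest, median and highest in vehicle samples. It rose without overlap, by 1.53 ± 0.34 (adjusted p = 0.0201).

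Trafficking receptors and leukocyte integrins rose in part. Of 13 tested, 6 rose and none fell (median 1.17), where 20.5% of all tested genes rose. Without vehicle sample 2 it was 7 of 13, against 29.8% of all. Cxcr4, the CXCL12 receptor that holds neutrophils in bone marrow, had 1221, 979.5, 1104 and 1258 normalized counts in ENT_PD1 samples, against 205, 372 and 889.8 as the lowest, median and highest in vehicle samples, with no overlap. Its fold change was 1.55 ± 0.36 (adjusted p = 0.0207). Ccrl2, a chemerin-binding receptor that does not signal through G proteins, rose by 1.56 ± 0.42, Selplg, the selectin ligand PSGL-1, by 1.49 ± 0.40, and C5ar1, the receptor for complement C5a, by 1.53 ± 0.45 (adjusted p = 0.0239, 0.0239 and 0.0281). Ccr1, a receptor for CCL3 and CCL5, rose by 1.40 ± 0.40 (adjusted p = 0.0262). Itgb1, a broadly expressed integrin chain, did not pass (-0.10 ± 0.15, adjusted p = 0.665), at 3133, 2715, 2728 and 2493 normalized counts in ENT_PD1 and 2364, 3020.3 and 3232 as the lowest, median and highest in vehicle samples.

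Cytokines of the interleukin-1 family were among the genes that rose. Il1b, which encodes interleukin-1 beta, reached 14356, 12768, 12632 and 14897 normalized counts in ENT_PD1 samples, against 2369, 3754 and 11618 as the lowest, median and highest in vehicle samples. The groups did not overlap, and the fold change was 1.69 ± 0.40 (adjusted p = 0.0207). Its antagonist Il1rn rose by 1.43 ± 0.48 and its relative Il1a by 1.30 ± 0.46 (adjusted p = 0.0404 and 0.0496), so ligands and antagonist were higher together. These were the 3 of 7 tested interleukin-1 and inflammasome genes that passed (median 1.30, and 4 of 7 without vehicle sample 2). Nlrp3, the inflammasome sensor, had 1497, 1452, 1214 and 1689 normalized counts in ENT_PD1 and 217, 484 and 1502 as the lowest, median and highest in vehicle samples, and missed the threshold (1.37 ± 0.51, adjusted p = 0.0629).

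Of 11 tested genes of the TNF superfamily and its receptors, 3 rose and none fell (median 0.59), a share near the 20.5% of all tested genes. Tnf had 1385, 1533, 972 and 1429.7 normalized counts in ENT_PD1 samples, against 214, 433 and 1182 as the lowest, median and highest in vehicle samples (1.48 ± 0.45, adjusted p = 0.0293). Ltb, a membrane-bound lymphotoxin, had 156, 126, 90.2 and 111 normalized counts in ENT_PD1. Vehicle samples had 19.9, 30.5 and 90.5 as the lowest, median and highest, the lowest under the background limit of 29.3. The fold change of Ltb was the largest among the genes that passed (1.75 ± 0.48, adjusted p = 0.0239). Tnfrsf1b, the TNF receptor of leukocytes, rose by 0.97 ± 0.28 (adjusted p = 0.0256), whereas Tnfrsf12a, a receptor for TWEAK, was slightly negative (-0.14 ± 0.14, adjusted p = 0.51). Il23a, the p19 subunit of interleukin-23, was named after its values were seen and rose by 1.15 ± 0.31 (adjusted p = 0.0239). Il6, also named afterwards, had the largest fold change of all tested genes and did not pass (2.08 ± 0.89, adjusted p = 0.101). It ranged from 75.8 to 201 normalized counts in ENT_PD1 and from 4.43 to 118 in vehicle samples. Its lowest vehicle value lay under the background limit of 29.3, so the size of the change rests in part on background.

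Chemokines were split. Cxcl2, a ligand of Cxcr2, had 3408, 3753, 2681 and 4187 normalized counts in ENT_PD1 samples, against 763, 1058 and 3807 as the lowest, median and highest in vehicle samples. Vehicle sample 2 again lay among the ENT_PD1 samples, and the other 5 vehicle samples lay well below them (1.53 ± 0.46, adjusted p = 0.0281). Cxcl1 (0.85 ± 0.32, adjusted p = 0.0671) and Cxcl3 (0.89 ± 0.44, adjusted p = 0.16), ligands of the same receptor, did not pass, and all 3 of these CXC chemokines passed without vehicle sample 2. Of 10 other chemokines tested, Ccl4, a chemokine that draws monocytes and T cells, was the 1 that rose (1.30 ± 0.41, adjusted p = 0.0322), with a median of 1.08 over the list. Ccl3 had 953, 1086, 845 and 1544 normalized counts in ENT_PD1 and 176, 392 and 1550.3 as the lowest, median and highest in vehicle samples, and did not pass (1.30 ± 0.50, adjusted p = 0.0671).

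Some feedback inhibitors of NF-kB, a transcription factor that drives many of the cytokine genes above, also rose. Of 6 tested NF-kB genes 3 rose and none fell (median 1.04, and 5 of 6 without vehicle sample 2). Tnfaip3, the ubiquitin-editing enzyme A20 that shuts off TNF and Toll-like receptor signalling, had 3823, 3876, 3046 and 4005 normalized counts in ENT_PD1 samples, against 685, 1067 and 2956 as the lowest, median and highest in vehicle samples. The groups did not overlap (1.58 ± 0.39, adjusted p = 0.0207). Nfkbia, the inhibitor that holds NF-kB in the cytoplasm, rose by 1.15 ± 0.30, and Nfkbiz, a nuclear co-regulator, by 1.06 ± 0.29 (adjusted p = 0.0239 and 0.0239). The subunit gene Nfkb1 did not pass, with 192 to 262 normalized counts in ENT_PD1 and 166 to 245 in vehicle samples.

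The promoters of 5 genes that rose, Nfkbia, Tnfaip3, Cxcl2, Il1b and Icam1, were searched because these are textbook NF-kB targets. Sequences are shown only for Nfkbia, Tnfaip3 and Cxcl2, whose windows held a match to the kappaB consensus. Each stretch of 300 bases runs 5′ to 3′ on the strand of the gene, from 250 bases before to 50 bases after a RefSeq transcript start (build GRCm38.p6), in lower case with matches to the kappaB consensus, searched by its usual degenerate form on both strands, in capitals. Nfkbia lies on the minus strand at chr12:55492598-55492897, Tnfaip3 on the minus strand at chr10:19015361-19015660, and Cxcl2 on the plus strand at chr5:90903649-90903948.
Nfkbia: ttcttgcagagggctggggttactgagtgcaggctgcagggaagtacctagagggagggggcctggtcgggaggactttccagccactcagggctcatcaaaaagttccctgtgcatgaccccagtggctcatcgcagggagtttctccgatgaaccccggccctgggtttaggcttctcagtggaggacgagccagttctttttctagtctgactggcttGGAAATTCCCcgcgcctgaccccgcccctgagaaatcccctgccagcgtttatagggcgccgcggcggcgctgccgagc
Tnfaip3: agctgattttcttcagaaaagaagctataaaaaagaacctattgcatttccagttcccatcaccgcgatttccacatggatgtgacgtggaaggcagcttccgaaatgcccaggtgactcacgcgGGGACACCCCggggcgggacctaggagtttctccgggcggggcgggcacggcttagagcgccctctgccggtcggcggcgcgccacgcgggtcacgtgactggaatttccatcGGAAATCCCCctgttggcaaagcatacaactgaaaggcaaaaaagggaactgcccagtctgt
Cxcl2: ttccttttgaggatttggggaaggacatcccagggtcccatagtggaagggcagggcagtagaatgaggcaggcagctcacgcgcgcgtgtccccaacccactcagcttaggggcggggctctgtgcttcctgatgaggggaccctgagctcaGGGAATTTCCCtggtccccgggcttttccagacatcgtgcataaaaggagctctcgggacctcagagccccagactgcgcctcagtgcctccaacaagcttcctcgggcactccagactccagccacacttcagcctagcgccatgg
Nfkbia held 1 match, which began at -29 from the start. Tnfaip3 held matches at -125, read on both strands, and at -12, and its second annotated start had none. Cxcl2 held a pair of overlapping matches at -97 and -96. The windows of Il1b and Icam1, which also rose, held no match, which says only that these letters are not in the window. A match was present in 14.9% of 94 windows of the genes that rose (72 of the 86 genes had a window), in 19.9% of 282 windows of tested genes that did not pass, and in 8.46% of all 32851 windows of that length. The share among the genes that rose was thus below that among the tested genes that did not pass.

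Receptors that sense microbes and immune complexes were among the genes that rose. Of 9 tested Toll-like and NOD receptor genes with their adaptors, 4 rose (median 0.86, and 5 of 9 without vehicle sample 2). Myd88, the adaptor shared by most Toll-like receptors and the interleukin-1 receptor, had 332, 301, 250.3 and 329 normalized counts in ENT_PD1 samples, against 84.1, 115 and 243 as the lowest, median and highest in vehicle samples, with no overlap (1.28 ± 0.32, adjusted p = 0.0207). Tlr6, which senses lipopeptides together with Tlr2, rose by 1.08 ± 0.27, Tlr4, the lipopolysaccharide receptor, by 1.00 ± 0.32, and Clec7a, the fungal beta-glucan receptor, by 1.36 ± 0.45 (adjusted p = 0.0239, 0.0352 and 0.0375). Tlr2 itself did not pass (0.86 ± 0.40, adjusted p = 0.133). Of 9 tested Fc gamma receptor and ITAM signalling genes, 6 rose (median 1.22, and 7 of 9 without vehicle sample 2). They included Fcgr4, an activating receptor for IgG (1.27 ± 0.38, adjusted p = 0.0289), the ITAM adaptor Tyrobp (1.46 ± 0.45, adjusted p = 0.0293) and the kinase Syk (1.36 ± 0.42, adjusted p = 0.0316).

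Genes used by all leukocytes rose together with the neutrophil genes, 4 of 5 tested (median 1.31, and 5 of 5 without vehicle sample 2). Ptprc, which encodes the leukocyte surface marker CD45, had 809.8, 825, 796 and 958 normalized counts in ENT_PD1 samples, against 187, 279.6 and 739 as the lowest, median and highest in vehicle samples. The groups did not overlap (1.33 ± 0.36, adjusted p = 0.0239). The summed level of the 13 neutrophil genes ran from 24738 to 32270 normalized counts in ENT_PD1 and from 6534 to 25846 in vehicle samples. In RNA from a whole isolate, fewer cells of a type and less RNA per cell cannot be told apart, so a share of other cells in the vehicle isolates and a change within G-MDSCs cannot be told apart here either.

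**Figure D4:**
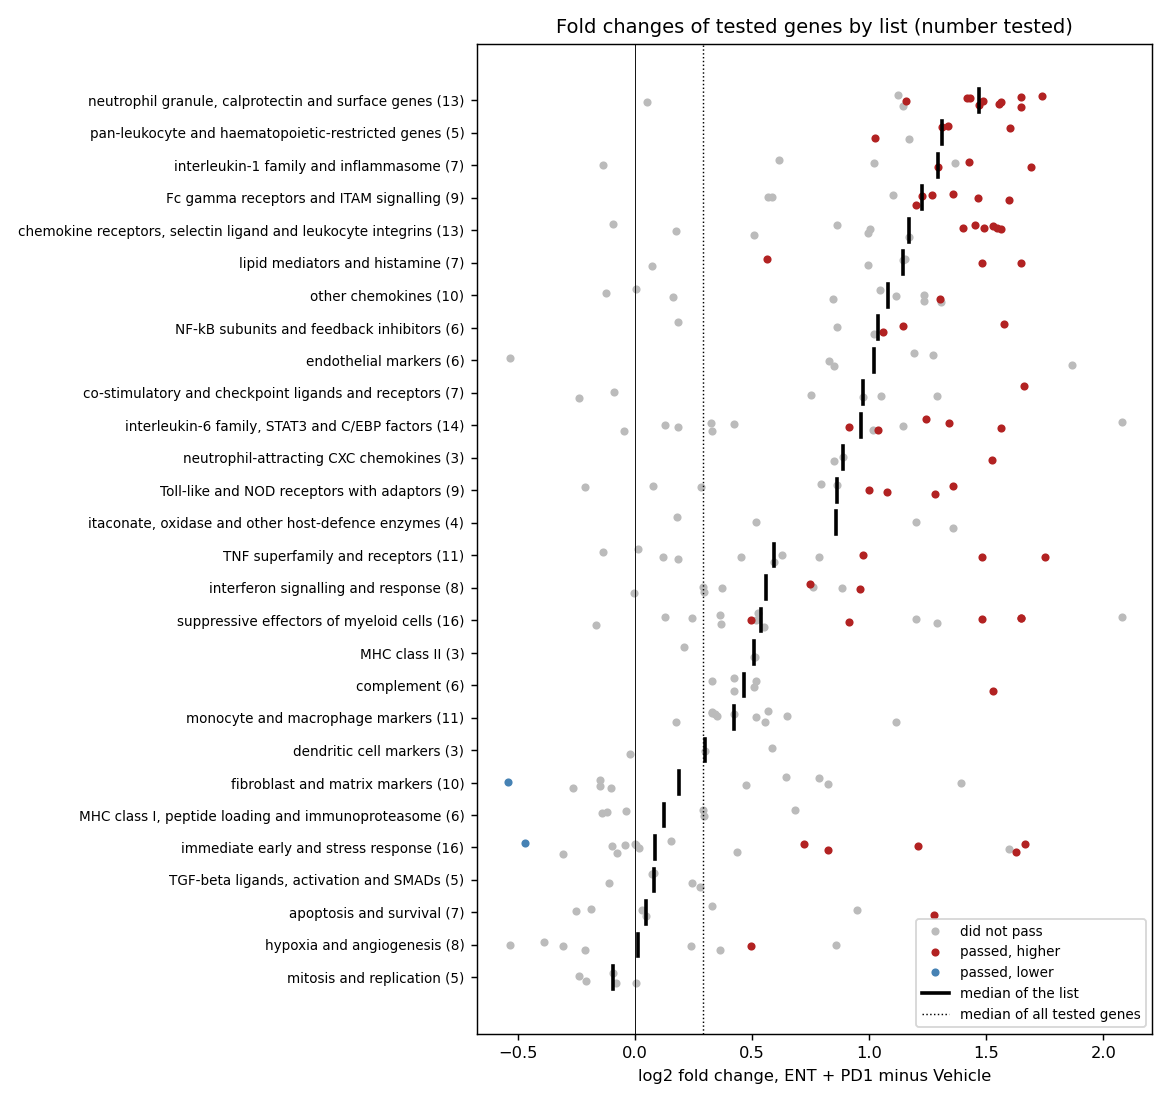
Each row is a gene list with at least 3 tested genes (number tested in parentheses), each point a gene placed by its log2 fold change (ENT_PD1 minus vehicle), and the black bar the median of the list; red passed as higher, blue as lower. Neutrophil and pan-leukocyte genes lie furthest right, with medians of 1.47 and 1.31, and mitosis genes furthest left, with a median of -0.09.

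Growth factor and interleukin-6 pathway genes included 5 that rose among 14 tested (median 0.96), where 20.5% of all tested genes rose. Csf1, the macrophage growth factor, had 687, 559, 593 and 745 normalized counts in ENT_PD1 samples, against 149.6, 233 and 499.5 as the lowest, median and highest in vehicle samples, with no overlap (1.34 ± 0.29, adjusted p = 0.0201). Cebpb, a transcription factor needed for emergency production of neutrophils and for suppressive function in MDSCs, rose by 0.91 ± 0.22 (adjusted p = 0.0207). Socs3, the feedback inhibitor of STAT3 signalling, rose by 1.24 ± 0.40, and Il6ra, the interleukin-6 receptor, by 1.04 ± 0.36 (adjusted p = 0.0352 and 0.049). Stat3 did not pass (0.13 ± 0.11, adjusted p = 0.422), at 795, 613, 676 and 741 normalized counts in ENT_PD1 and 554, 627 and 774 as the lowest, median and highest in vehicle samples. Il10ra, the interleukin-10 receptor chain that signals through STAT3, was named after its values were seen and rose without overlap (1.47 ± 0.43, adjusted p = 0.0276).

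Among genes of suppressive function Ptgs2 passed and Arg1 did not. Ptgs2, the inducible cyclooxygenase that makes the precursor of prostaglandin E2, had 3012, 3067, 2587 and 3177 normalized counts in ENT_PD1 samples, against 592, 826 and 2732 as the lowest, median and highest in vehicle samples (1.48 ± 0.42, adjusted p = 0.0257). Vehicle sample 2, the highest of its group, lay above the lowest ENT_PD1 sample. Arg1, the enzyme that depletes arginine, had 25.4, 23.4, 46.0 and 147 normalized counts in ENT_PD1 samples 1 to 4, against 23.02, 116, 99.5, 29.5, 55.9 and 38.1 in vehicle samples 1 to 4, V1 and V2. The groups overlapped throughout (-0.17 ± 0.49, adjusted p = 0.817), its sign turned under several settings, and its high samples were those rich in macrophage genes, as described below. Nos2 and Il10 lay under the background limit in both groups. In all, 5 of 16 tested suppressive genes rose (median 0.54), S100a8, S100a9 and Cebpb among them, against 20.5% of all tested genes. Without vehicle sample 2 it was 11 of 16, against 29.8% of all.

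Cd274, which encodes PD-L1, the ligand of the receptor that the antibody blocks, had 316, 293, 196 and 320.0 normalized counts in ENT_PD1 samples 1 to 4, against 53.1, 423, 190.5, 95.3, 81.5 and 59.4 in vehicle samples 1 to 4, V1 and V2. The highest value of all was in vehicle sample 2, and the gene did not pass (1.29 ± 0.65, adjusted p = 0.16). Pdcd1, which encodes PD-1 itself, lay under the background limit in both groups. Icosl, the co-stimulatory ligand of ICOS on T cells, had 118, 99.3, 83.4 and 111 normalized counts in ENT_PD1 samples. In vehicle samples the lowest, median and highest were 21.2, 25.5 and 64.7, with no overlap between the groups (1.66 ± 0.42, adjusted p = 0.0225). The vehicle median lay under the background limit of 29.3, where the negative controls also stood higher in ENT_PD1. Icosl was the 1 of 7 tested co-stimulatory and checkpoint genes to rise (median 0.97, and 4 of 7 without vehicle sample 2).

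Of 7 tested lipid mediator and histamine genes, 3 rose (median 1.14). Hdc, which makes histamine and is a mark of immature myeloid cells, had 338, 394, 308 and 431 normalized counts in ENT_PD1 samples, against 54.9, 101 and 304 as the lowest, median and highest in vehicle samples (1.65 ± 0.46, adjusted p = 0.0249). Ptgs1, the constitutive cyclooxygenase, rose by 0.56 ± 0.18 (adjusted p = 0.0352), a smaller step than that of Ptgs2. Alox5, the first enzyme of leukotriene synthesis, fell just short of the threshold (1.14 ± 0.41, adjusted p = 0.0501). Cybb, an oxidase subunit gene, did not pass (0.52 ± 0.64, adjusted p = 0.589). Vegfa, the angiogenic factor, rose without overlap by 0.50 ± 0.17 (adjusted p = 0.049), where the median of all tested genes was 0.29. It passed in 7 of the 26 alternatives, as few as any of the 92 genes. It was the 1 hypoxia and angiogenesis gene of 8 to rise (median 0.01). Tgfb1 did not pass (0.24 ± 0.22, adjusted p = 0.466), nor did any of the other 4 tested TGF-beta genes.

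Immediate early and stress genes divided, with 5 of 16 higher, 1 lower and a median of 0.08, not far from the 20.5% higher and 1.43% lower among all tested genes. Btg2 had 1529.7, 1636, 1426 and 1698 normalized counts in ENT_PD1 samples, against 460.4, 675 and 1114 as the lowest, median and highest in vehicle samples, with no overlap (1.21 ± 0.26, adjusted p = 0.0201). Dusp2, a nuclear phosphatase of MAP kinases in leukocytes, rose by 1.67 ± 0.41, and Gadd45b, a stress gene under NF-kB control, by 1.63 ± 0.40 (adjusted p = 0.0207 and 0.0207). Cdkn1a, the cell cycle inhibitor p21 that histone deacetylase inhibitors are known to induce, had 898, 911, 738 and 898 normalized counts in ENT_PD1 samples, against 365, 430.4 and 815 as the lowest, median and highest in vehicle samples. It rose by 0.82 ± 0.23 (adjusted p = 0.0249), less than the median of the 86 genes. Fosb, a subunit of AP-1, had a negative fold change and did not pass (-0.31 ± 0.16, adjusted p = 0.183). None of 5 mitosis and replication genes passed, and Hist2h2aa1, a core histone gene, lay below every vehicle sample in all 4 ENT_PD1 samples, at 1444, 1474, 1567 and 1421 against 1612, 1682 and 1957 as the lowest, median and highest in vehicle samples, without passing (-0.24 ± 0.13, adjusted p = 0.204). Hdac3, a target of the drug, is a housekeeping probe of the panel and averaged 199 ± 14.2 normalized counts in ENT_PD1 and 233 ± 30.2 in vehicle samples (SD, n = 4 and 6), and it was not tested.

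No antigen presentation gene passed, and interferon genes passed at a share near that of all tested genes (20.5% higher). Of 8 tested interferon genes 2 rose (median 0.56): Isg15, an antiviral ubiquitin-like protein (0.96 ± 0.29, adjusted p = 0.0281), and Ifngr1, a chain of the interferon gamma receptor (0.75 ± 0.19, adjusted p = 0.0239), both without overlap between the groups. Irf1, a transcription factor induced by interferon gamma, also did not overlap but missed the threshold (0.76 ± 0.27, adjusted p = 0.0501). None of the 6 MHC class I, peptide loading and immunoproteasome genes (median 0.12) or of the 3 MHC class II genes (median 0.51) passed.

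The 6 genes that fell did so by small steps, and whether they share a pathway was not tested. Tgfa, a ligand of the EGF receptor, had 79.3, 77.4, 71.0 and 76.4 normalized counts in ENT_PD1 samples, against 87.7, 117 and 141 as the lowest, median and highest in vehicle samples, with no overlap (-0.56 ± 0.17, adjusted p = 0.0293). Fyn, a Src family kinase, also had no overlap (-0.32 ± 0.11, adjusted p = 0.049). Pdgfra, a growth factor receptor of fibroblasts, had 235, 207, 223 and 183 normalized counts in ENT_PD1 samples, against 207, 323 and 362 as the lowest, median and highest in vehicle samples, with sample 2 the lowest (-0.54 ± 0.19, adjusted p = 0.0496). It was the 1 of 10 tested fibroblast and matrix markers that passed, where 1.43% of all tested genes fell. The 10 markers were split, with 5 positive and 5 negative fold changes, from -0.54 to 1.39 with a median of 0.19. Dusp6, a phosphatase that limits ERK, changed by -0.47 ± 0.15, Rab3d, a secretory granule GTPase, by -0.47 ± 0.14, and Yap1, a co-activator of the Hippo pathway, by -0.45 ± 0.15 (adjusted p = 0.0352, 0.0281 and 0.0394). Cdh1, which encodes E-cadherin of epithelial cells, had 918, 886, 887 and 820.1 normalized counts in ENT_PD1 and 783, 1104 and 1253 as the lowest, median and highest in vehicle samples, again lowest in sample 2, and did not pass (-0.28 ± 0.15, adjusted p = 0.201). The part of epithelial and stromal RNA in the results was not tested.

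Macrophage markers varied widely within both groups. Of 11 tested monocyte and macrophage markers none passed (median 0.42), and their summed level was 1753, 1432, 2427 and 6073 normalized counts in ENT_PD1 samples 1 to 4. It was 6051 and 4517 in vehicle samples 2 and 3 and 928 to 1308 in the other 4 vehicle samples. C1qa, a complement subunit made by tissue macrophages, showed the pattern, with 198, 124, 303 and 898 normalized counts in ENT_PD1 samples 1 to 4, against 101, 900.4, 853, 137, 91.6 and 95.9 in vehicle samples 1 to 4, V1 and V2. Apoe, a lipoprotein of macrophages (0.34 ± 0.67, adjusted p = 0.736), and Cd74, the MHC class II invariant chain (0.51 ± 0.86, adjusted p = 0.68), were high in the same samples. Vehicle samples 2 and 3 were thus the vehicle samples highest in both neutrophil and macrophage genes, and the part of macrophage RNA in the results was not tested. ENT_PD1 samples 1, 2 and 3 had mean log2 levels of the neutrophil genes of 8.80, 8.62 and 8.53, with lower macrophage sums than vehicle sample 2, at 8.52. ENT_PD1 sample 4 was the highest of all samples in both, at 8.93 with a macrophage sum of 6073. Of 6 endothelial markers none passed (median 1.02), with Selp, a selectin of endothelium and platelets, at 86.8, 133, 53.7 and 89.4 normalized counts in ENT_PD1 and 2.66, 29.5 and 88.3 as the lowest, median and highest in vehicle samples. Gata3 was the only T, B and NK cell marker tested and did not pass, and the other 5 on the panel lay under the background limit in every group.

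**Figure D5:**
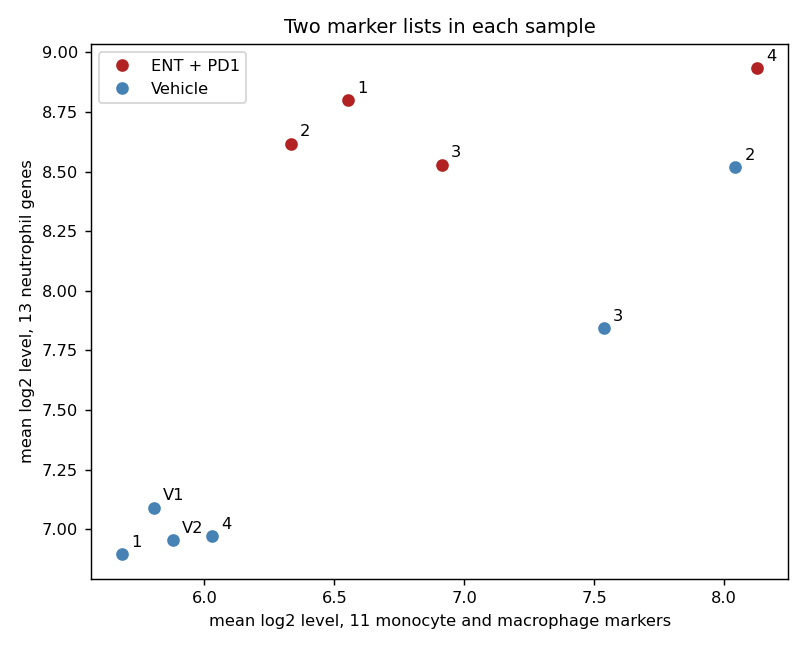
Mean log2(normalized count + 1) of 13 neutrophil genes (y axis) against that of 11 monocyte and macrophage markers (x axis) in the 4 ENT_PD1 (red) and 6 vehicle (blue) samples, labelled by sample. Vehicle samples 1, 4, V1 and V2 lie together at the lower left, whereas ENT_PD1 samples 1 to 3 lie high on the y axis and low to middle on the x axis. ENT_PD1 sample 4 lies highest on both axes.

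Mice of the entinostat group (4 samples) were given entinostat without anti-PD-1. None of the 420 genes passed (0.0%) in ENT_PD1 minus entinostat by limma, where 7 had an unadjusted p under 0.05. By edgeR and DESeq2 it was also 0, with 8 to 12 genes under 0.05 unadjusted. The fold changes ran from -1.59 to 0.49, with a median of -0.14. S100a9 had 15777 ± 1974 normalized counts in ENT_PD1 and 18565 ± 5130.5 in entinostat samples (SD, n = 4 each). Il1b had 13663 ± 1135 in ENT_PD1 and 13689.8 ± 2757 in entinostat samples, and Il17ra 208 ± 17.8 in ENT_PD1 and 223 ± 37.4 in entinostat samples. A p that misses the threshold does not show that the groups were alike. The smallest p was that of Hist2h2aa1, at 1477 ± 64.1 in ENT_PD1 and 1053 ± 68.0 in entinostat samples (log2 fold change 0.49 ± 0.15, SE, adjusted p = 0.971). The lowest fold change, that of the macrophage chemokine Ccl8, came with a wide error (-1.59 ± 1.06, adjusted p = 0.971).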

How the data were processed

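RNA of magnetically selected Ly6G-positive tumour cells was counted by NanoString nCounter with its mouse myeloid panel, per the labels' protocols. The deposited table holds the authors' normalized counts, a linear signal, of 655 endogenous and 20 housekeeping genes and of 8 negative and 6 positive control probes in 22 samples. The authors' way of normalizing is not given in the sources. In each sample 100% of the deposited signal values up to 200 were multiples of a fixed step (tolerance 0.1 count), and division by it gave barcode counts, used for depth and for count tests as alternatives. Of tools, the submitters' processing notes list limma alone.

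The log2(normalized count + 1) was modelled by 5 group means over the 22 samples in limma 3.58.1 (R 4.3.3), which left 17 residual degrees of freedom plus 2.14 from the prior. The background limit, 29.3 normalized counts, was the log2 mean of the negative controls plus 2 SD, and 235 genes with no group mean above it were not tested. Groups came from the sample titles, and vehicle samples 1 to 4, V1 and V2 formed a single group. Among the 10 samples compared no pair agreed within sampling noise, and samples of the other groups were not checked in this way. Alternatives covered the samples fitted, pseudocount, filter, scaling, background subtraction, edgeR 4.0.16, DESeq2 1.42.0, sample weights, cartridge, replicate block and leave-one-out. The edgeR and DESeq2 fits used the recovered counts. On simulated data for this comparison (420 genes, 200 of them changed), limma found a log2 change of 1 in 70% of genes given it. A change of 2 was found in 91%, with 9 false calls among 220. The simulated noise was independent between samples, with the same SD per gene in all groups. It held no cartridge effect and no outlying sample such as vehicle sample 2, so these rates need not hold for the real data.

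The 10 samples, gene lists and tests were chosen with earlier results of these data known. Named genes were the 15 largest increases and the 10 largest decreases among genes that passed (all where fewer), of each list up to 5 that passed with the smallest p and up to 3 tested others with the highest mean, and always Hdac3, Il17ra, Cxcr2, Vegfa, Tgfb1, Il10, Cybb, Cd274, S100a9, S100a8, Stat3, Ptgs2, Nos2 and Arg1. Not every gene the rule names is described, and some are not reported here. Promoter sequences are RefSeq's, build GRCm38.p6, and no protein sequence was used here.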

Additional observations from a re-analysis of the deposited data

Results flagged for a closer look

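In each group of 4 or 6 samples, the gap between the highest or lowest sample and its nearest neighbour was set against the group's range, for the genes named. Of 242 gene and group pairs 21 exceeded Dixon's critical value (0.829 for 4 samples, 0.625 for 6). Chance flags about 1 in 20 groups.

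Vehicle sample 2 was the lone high sample in 6 genes, with gaps of 0.854 of the range for Il17ra, 0.731 for Il23a, 0.728 for Cxcl2, 0.72 for Cxcr2, 0.696 for Cxcl3 and 0.638 for Tnfrsf14. It was the lone low sample in 5, with 0.76 for Cd276, 0.712 for Pdgfra, 0.692 for Itgb1, 0.668 for Rab3d and 0.655 for Cdh1. In 55 of the 86 genes that rose it lay at or above the lowest ENT_PD1 value, against 3 for vehicle sample 3 and 0 for each of the other vehicle samples. Over those 86 genes its median log2 difference from the vehicle mean was 1.19, against 1.39, 1.23, 1.12 and 1.62 in the ENT_PD1 samples and 0.40 or less in the other vehicle samples.

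ENT_PD1 sample 4 was the lone high sample in 5 genes, with 0.971 for Tlr13, 0.966 for Alox5, 0.885 for Acod1, 0.841 for Syk and 0.837 for Sirpa. ENT_PD1 sample 3 was the lone low sample in 4, with 0.938 for Icam1, 0.932 for Cdkn1a, 0.848 for Cxcl1 and 0.83 for Tnfaip3. ENT_PD1 sample 2 was the lone low sample in Furin, with 0.884. Icam1, the adhesion ligand of leukocyte integrins, had 1566, 1525, 1026 and 1542 normalized counts in ENT_PD1 samples 1 to 4, against 187, 1449, 563, 481, 347 and 233 in vehicle samples 1 to 4, V1 and V2.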

How the results depend on the processing

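With all samples and settings as reported 92 genes passed. In all, 43 genes passed with no background filter, 30 by edgeR with housekeeping factors, 226 with sample weights, 3 with the cartridge as a block, and 0 within cartridge 1, without vehicle samples V1 and V2, and with V1 and V2 left out and only the 8 samples fitted (chosen after seeing the data). Leave-one-out fits gave 1 to 140, with 140 without vehicle sample 2, 105 without vehicle 3, 68 without ENT_PD1 3, 13 without V1, 7 without V2 and 1 without any other. The remaining alternatives gave 82 (TMM) to 114 (DESeq2) genes. Of the 92, 86 were higher and 6 lower, against 69 and 32 after quantile normalization, 60 and 22 with TMM and 75 and 39 by DESeq2. The median over all tested genes, 0.29, moved to -0.019 with median centring, -0.15 with quantile normalization, -0.13 with TMM, -0.092 by DESeq2 and 0.44 with the cartridge as a block. Against entinostat alone, sample weights gave 3 genes and all other alternatives 0. With the replicate block 0 genes passed (89 at an unadjusted p under 0.05 by limma). The correlations of deviations between equal numbers were 0.395, -0.185, 0.0567 and -0.653. So few values cannot decide whether samples of equal number share anything further. The labels state no pairs, and the main fit used none.

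Of the 92 genes, Furin, a protease that cleaves precursor proteins, was the 1 whose sign turned in any alternative, at -0.068 with quantile normalization against 0.40, and it was named after its values were seen. The other signs that turned belonged to genes that had not passed, and the cause was not tested. With median centring, quantile normalization, TMM and DESeq2, Pglyrp1 stood at -0.26, -0.44, -0.33 and -0.29, Stat3 at -0.18, -0.36, -0.27 and -0.23, and Tgfb1 at -0.065, -0.22, -0.16 and -0.12. With TMM and DESeq2, Cybb stood at -0.12 and -0.0697, C1qa at -0.21 and -0.14, Apoe at -0.12 and -0.047 (-0.087 with quantile normalization), and Cd74 at -0.41 and -0.35 (-0.14 by edgeR with housekeeping factors). With the replicate block or without V1 and V2, in both fits, Pglyrp1 stood at -0.033 and C1qa at -0.17. Arg1 turned to 0.031 by edgeR with housekeeping factors, 0.032 with the cartridge block, 0.061 within cartridge 1 and 0.022 without vehicle 3 and the triple combination sample a. Leave-one-out values ran from -0.064 to 0.14 for Pglyrp1, -0.73 to 0.14 for Arg1, -0.13 to 0.84 for C1qa and -0.14 to 0.70 for Apoe. Without ENT_PD1 3 Pglyrp1 stood at -0.064, and without ENT_PD1 4 C1qa at -0.13 and Apoe at -0.14. Arg1 turned to 0.067 without vehicle 2, 0.022 without vehicle 3, 0.097 without ENT_PD1 1 and 0.14 without ENT_PD1 2.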
